A study of Homo sapiens with 26 samples.

Results

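Adding siRNA against DNMT1 to siRNA against DNMT3A was examined in NCCIT cells by setting the 2 arrays of the group siD1+3A against the 2 arrays of the group siDNMT3A, 4 of the 26 arrays of the series. The arrays were chosen by their sample titles, without use of any measured value, and the difference was taken for every gene. NCCIT is an established human embryonal carcinoma line, a germ cell tumour line that keeps many features of pluripotent cells. The series measured transcripts on Affymetrix Human Gene 1.0 ST arrays after transfection of siRNA against DNA methyltransferases, in 13 groups of 2 arrays.

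All 4 arrays compared came from cells that had received siRNA against DNMT3A, and the cells of siD1+3A had also received siRNA against DNMT1. Cells treated with siRNA against DNMT1, DNMT3A and DNMT3B (siD1+3A+3B), against DNMT3A and DNMT3B (3A+3B), against DNMT3A and DNMT3L (3A+3L), against DNMT1 and DNMT3B (siD1+3B), against DNMT1 alone (siDNMT1) and with either of 2 control siRNA groups (siNTC-1 and siNTC-2) served for comparison. The other groups received siRNA against DNMT3B (siDNMT3B), DNMT3L (siDNMT3L), DNMT3B and DNMT3L (3B+3L), or DNMT3A, DNMT3B and DNMT3L (3A+3B+3L). Their arrays entered the fit and the readings over the whole series. The labels give no siRNA dose and no time after transfection. Nothing in them ties the 2 arrays of a group to independent cultures, and the p-values therefore describe array-to-array spread, which may be purely technical. Duplicates correlated across genes at 0.9988 in siD1+3A and 0.9986 in siDNMT3A, within the range of 0.9973 to 0.9989 over the 13 groups. Of 8 embryonal carcinoma markers, POU5F1, NANOG and TDGF1 were not among the genes tested. SOX2, LIN28A, DPPA4, L1TD1 and SALL4 were measured. Their values on single arrays ranged from 10.96 to 12.45 on the log2 scale over the 4 arrays, above the upper quartile of all genes (8.89). The 8 mesoderm and endoderm markers and the 6 trophoblast markers checked lay below the median of all genes (6.84). Of 5 neural markers measured, PAX6, SOX1 and NEUROG2 lay below it, and the highest of the 5 read 8.24.

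DNMT1 restores methylation on the new strand after DNA replication, while DNMT3A and DNMT3B can methylate sites that carried none, and DNMT3L assists them without catalysis of its own. In mammalian cells outside the germ line, promoter methylation holds a set of germ cell genes silent, among them genes for the piRNA pathway, in which small RNAs direct the silencing of transposons, and for meiosis. The integrated stress response is a separate programme in which the factor ATF4 raises genes for amino acid synthesis and uptake, redox balance and growth restraint. Methylation itself was not measured here.

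The promoters of 5 genes on which the results turn are shown, as the 250 bases before the annotated start of the gene on the gene's own strand, from RefSeq on GRCh38.p14. MAEL, GTSF1 and ZFP57 are germ line or early embryo genes that rose, HHIP had the largest fall, and CHAC1 stands for the stress genes that fell. HORMAD1 and ALDH1L2 are named only. In the first 4 sequences the capitals mark CpG dinucleotides, the sites that DNA methyltransferases modify, and in CHAC1 they mark the letters of a motif described further on.
MAEL promoter, chr1:166975332-166975581, plus strand: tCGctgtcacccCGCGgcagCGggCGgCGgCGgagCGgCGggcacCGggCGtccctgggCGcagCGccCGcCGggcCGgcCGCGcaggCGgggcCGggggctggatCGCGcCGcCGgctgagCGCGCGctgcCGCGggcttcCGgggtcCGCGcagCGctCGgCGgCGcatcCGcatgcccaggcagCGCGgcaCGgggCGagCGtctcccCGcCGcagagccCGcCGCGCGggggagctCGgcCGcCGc
GTSF1 promoter, chr12:54473603-54473852, minus strand: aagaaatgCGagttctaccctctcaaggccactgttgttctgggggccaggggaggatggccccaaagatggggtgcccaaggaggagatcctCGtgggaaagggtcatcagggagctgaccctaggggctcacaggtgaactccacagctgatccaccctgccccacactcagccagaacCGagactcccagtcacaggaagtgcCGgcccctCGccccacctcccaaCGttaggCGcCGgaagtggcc
ZFP57 promoter, chr6:29681153-29681402, minus strand: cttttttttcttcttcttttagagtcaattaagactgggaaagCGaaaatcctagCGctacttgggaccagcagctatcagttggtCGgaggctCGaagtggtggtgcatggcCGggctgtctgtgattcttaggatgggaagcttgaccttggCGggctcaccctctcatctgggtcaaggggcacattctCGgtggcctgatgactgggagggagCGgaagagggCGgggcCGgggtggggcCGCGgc
HHIP promoter, chr4:144645906-144646155, plus strand: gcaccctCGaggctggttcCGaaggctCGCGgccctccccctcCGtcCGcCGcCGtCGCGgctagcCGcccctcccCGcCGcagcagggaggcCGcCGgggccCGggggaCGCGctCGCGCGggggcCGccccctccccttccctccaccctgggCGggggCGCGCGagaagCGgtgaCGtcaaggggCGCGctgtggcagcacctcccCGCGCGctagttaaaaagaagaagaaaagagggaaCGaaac
CHAC1 promoter, chr15:40953221-40953470, plus strand: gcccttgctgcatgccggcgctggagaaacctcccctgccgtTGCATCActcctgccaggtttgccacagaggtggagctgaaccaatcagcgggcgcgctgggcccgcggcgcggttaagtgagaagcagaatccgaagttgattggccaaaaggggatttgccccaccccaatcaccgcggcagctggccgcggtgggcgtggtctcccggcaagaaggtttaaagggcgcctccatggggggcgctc

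The targeted transcripts were examined first. DNMT1 read 9.13 and 9.16 on the log2 scale in siD1+3A against 10.07 and 10.08 in siDNMT3A. The groups did not overlap, and DNMT1 mRNA was at 52.5% of its level without the DNMT1 siRNA (log2 difference -0.93 ± 0.06 standard error, n = 2 against 2, limma adjusted p = 7.6e-09). DNMT3A read 6.78 and 6.64 in siD1+3A and 6.75 and 6.76 in siDNMT3A, which overlap (-0.05 ± 0.07, adjusted p = 0.785), and against 7.26 and 7.31 in the control group siNTC-2. The differences of DNMT3B (0.08 ± 0.06, adjusted p = 0.513) and DNMT3L (-0.16 ± 0.12, adjusted p = 0.475) also missed the threshold. The added siRNA therefore came with a lower DNMT1 transcript at a DNMT3A transcript level that did not detectably differ.

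Across 18417 genes, 1771 changed with an adjusted p under 0.05 (9.62%), of which 796 rose (4.32%) and 975 fell (5.29%). Most changes were small. A change of at least 1.5-fold was seen for 90 genes (0.489%), 28 that rose (0.152%) and 62 that fell (0.337%), and the median over all genes was 0.0027 on the log2 scale. The spread was estimated from all 13 groups. With either array of either group left out the count of changed genes was 642 to 954 and that of 1.5-fold changes 85 to 115 (642 and 85 without siDNMT3A replicate 1, 649 and 90 without siD1+3A replicate 1, 715 and 99 without siD1+3A replicate 2, 954 and 115 without siDNMT3A replicate 2). Counts of list members with an array left out, given further on, are to be read beside these lower counts over all genes. Because whole cultures were measured, a change in the share of a kind of cell and a change in RNA per cell cannot be told apart.

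Germ line genes stood among the largest rises. MAEL, a protein of the piRNA pathway needed for transposon silencing in the male germ line, read 6.19 and 6.34 in siD1+3A and 5.10 and 4.99 in siDNMT3A. It rose by 1.22 ± 0.11 on the log2 scale, or 2.34-fold (adjusted p = 1.89e-06). GTSF1, a zinc finger protein that works with PIWI proteins, read 8.36 and 8.45 against 7.15 and 7.21 and rose by 1.22 ± 0.08 (adjusted p = 2.05e-08). HORMAD1, a protein of the meiotic chromosome axis, read 6.25 and 6.33 against 5.73 and 5.14, a rise of 0.86 ± 0.16 (adjusted p = 0.00206). Its siDNMT3A arrays lay far apart, and with only the compared groups in the fit its adjusted p was 0.0598. ZFP57, a KRAB zinc finger protein that keeps methylation at imprinted loci in the early embryo, read 5.79 and 5.62 against 4.93 and 4.82 and rose by 0.83 ± 0.10 (adjusted p = 6.78e-05). Both siD1+3A arrays lay above both siDNMT3A arrays for each of the 4 genes, which was a condition of being named among the largest rises.

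**Figure D1:**
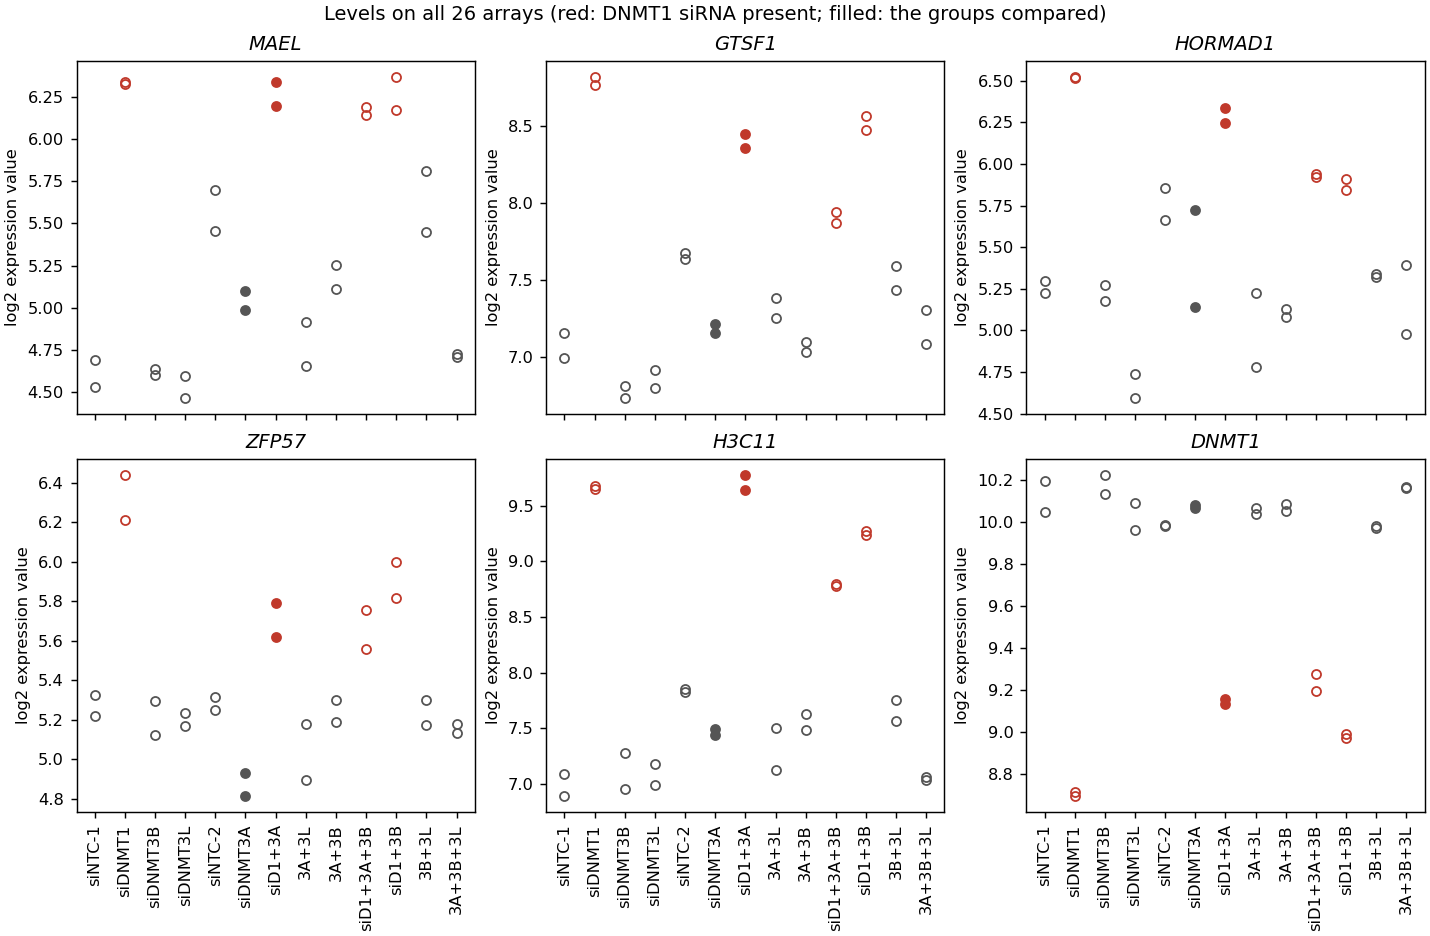
Log2 expression value (vertical axes) of MAEL, GTSF1, HORMAD1, ZFP57, H3C11 and DNMT1 on all 26 arrays, 1 point per array, by siRNA group (horizontal axes). Red marks the 8 arrays with DNMT1 siRNA and filled points the groups compared. MAEL lies at 6.14 to 6.37 on the red arrays and at 4.47 to 5.81 on the other 18, while DNMT1 lies at 8.70 to 9.28 and 9.96 to 10.22.

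In the germ line lists the share of members that rose was at or slightly above that of all genes, 4.32%. Most of their members were dim. Without the 40% of genes with the lowest mean, 7 of 29 piRNA and germ cell genes remained. Of 33 meiosis genes 9 remained, and of 46 cancer-testis antigens 6. Background signal compresses the differences of dim genes, so a missing call says little about them. Of 29 genes of the piRNA pathway and germ cells, GTSF1 and MAEL rose (6.9%) and 0 fell, and the list's median difference was 0.08. DDX4, an RNA helicase of germ cells, read 4.77 and 4.91 against 4.54 and 4.75, and DAZL, an RNA-binding protein of germ cells, read 5.97 and 6.41 against 5.92 and 5.79 (0.34 ± 0.11, adjusted p = 0.0575). Of 33 meiosis genes, HORMAD1 and TEX11, an X-linked crossover protein, rose (6.06%), STK31 fell (3.03%), and the median was -0.02. The calls of the latter pair depended on single arrays. TEX11 (0.26 ± 0.08, adjusted p = 0.0409) was lost without siD1+3A replicate 2 (0.15), siDNMT3A replicate 1 (0.31) or siDNMT3A replicate 2 (0.21). STK31 (-0.31 ± 0.10, adjusted p = 0.0452) was lost without siD1+3A replicate 1 (-0.29), siD1+3A replicate 2 (-0.33) or siDNMT3A replicate 1 (-0.14). Of 46 cancer-testis antigens, X-linked genes for the most part that are normally expressed in the testis, SSX3 and SSX6P rose (4.35%) and 0 fell (median 0.02). SSX3 read 5.69 and 5.64 against 4.98 and 5.26 and rose by 0.55 ± 0.08 (adjusted p = 0.00027). SSX6P rose by 0.33 ± 0.07 (adjusted p = 0.00685), a call lost without siD1+3A replicate 1 (0.28) or siDNMT3A replicate 1 (0.28). The SSX genes are near-identical copies, so their probes may share signal.

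Other lists linked to methylation were set beside the 4.32% of all genes that rose and the 5.29% that fell. Of 28 imprinted genes 2 rose and 2 fell (7.14% each, median 0.01), and 0 to 1 rose and 0 to 1 fell with an array left out. Of 29 methyl-CpG readers and silencers 3 rose (10.3%) and 0 fell (median 0.01), and of 29 clustered protocadherins 0 passed the threshold (median -0.10). SUV39H1, a histone H3 lysine methyltransferase of heterochromatin, read 6.92 and 7.01 against 6.63 and 6.58 and rose by 0.36 ± 0.06 (adjusted p = 0.000714). Among 6 endogenous retrovirus envelope genes, 2 rose (33.3%). ERVH48-1, the locus of the envelope-derived protein suppressyn, read 10.86 and 10.91 against 10.26 and 10.26 and rose by 0.62 ± 0.07 (adjusted p = 2.8e-05). ERVMER34-1 rose by 0.44 ± 0.10 (adjusted p = 0.00882), a call lost without siD1+3A replicate 1 (0.44), siD1+3A replicate 2 (0.44) or siDNMT3A replicate 2 (0.34). Of 30 genes of the interferon response and of RNA sensing, the transcription factor IRF1 rose (3.33%) and 0 fell, and the median was 0.02. IRF1 rose by 0.37 ± 0.11 (adjusted p = 0.0336) and missed the threshold without siD1+3A replicate 2 (0.26), siDNMT3A replicate 1 (0.33) or siDNMT3A replicate 2 (0.41).

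Histone genes gave the largest rise. H3C11, a replication-dependent histone H3 gene, read 9.77 and 9.64 against 7.50 and 7.44 and rose by 2.24 ± 0.11, or 4.71-fold (adjusted p = 1.18e-09). H1-5, a linker histone gene, read 5.98 and 5.78 against 4.43 and 4.65 and rose by 1.34 ± 0.12 (adjusted p = 1.75e-06). Of 57 replication-dependent histone genes 11 rose (19.3%, against 4.32% of all genes) and 0 fell, with a median of 0.08, and 8 to 9 rose with an array left out. H2AC14 read 7.85 and 7.71 against 6.88 and 6.83, but its rise of 0.92 ± 0.27 (adjusted p = 0.0344) was lost without siD1+3A replicate 1 (0.85), siD1+3A replicate 2 (1.00), siDNMT3A replicate 1 (0.95) or siDNMT3A replicate 2 (0.90). Histone genes lie in clusters of near-identical copies whose probes may share signal, so the assignment to a single gene is uncertain. H3C11, H1-1, H1-5 and H2AC14 and ZFP57 were the 5 of 28 genes with a 1.5-fold rise that lie on chromosome 6 (17.9%, against 5.3% of all genes).

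**Figure D2:**
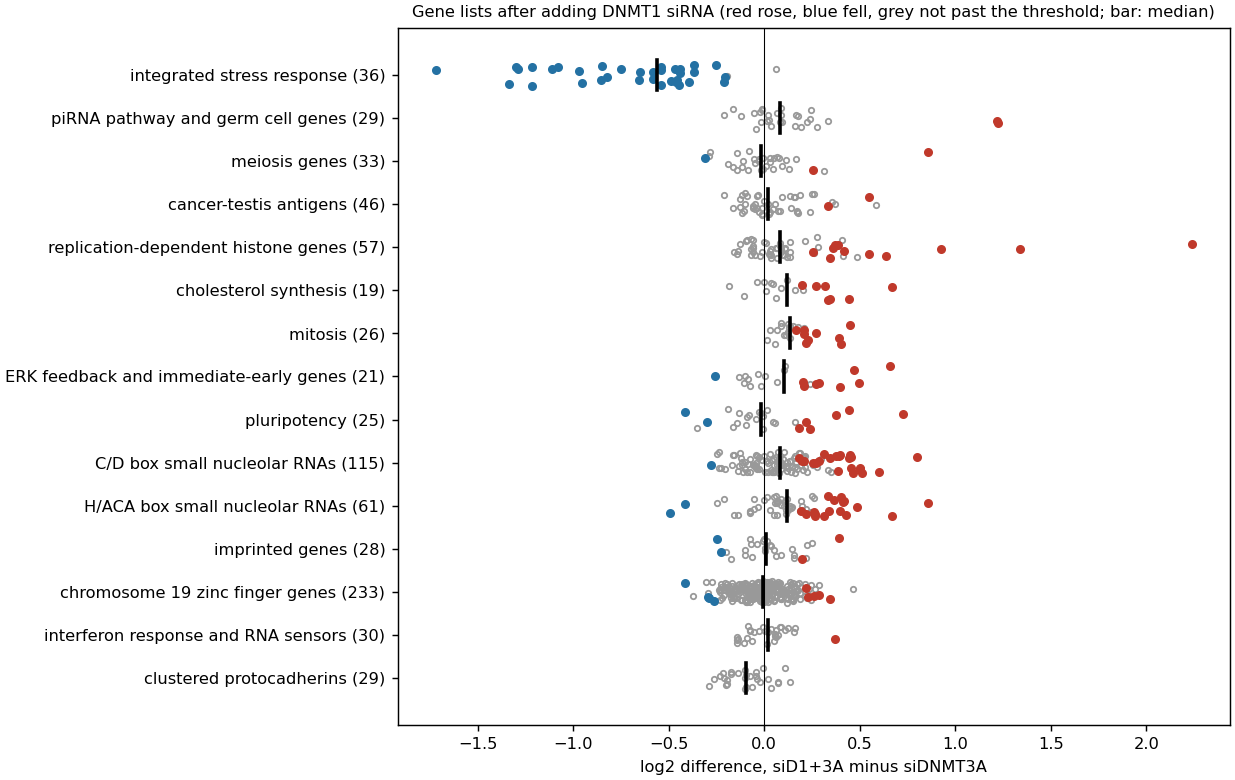
Log2 difference, siD1+3A minus siDNMT3A (horizontal axis), of every measured member of 15 gene lists, with the number of members in parentheses. Red points rose and blue points fell with an adjusted p under 0.05, grey rings did not pass, and black bars are medians. The stress-response list lies to the left of 0 with a median of -0.56. The other medians lie between -0.10 and 0.13, and a few histone and germ line genes lie far to the right.

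Genes of the integrated stress response made up 10 of the 15 largest falls, and 16 of the 62 falls of at least 1.5-fold (25.8%). Of its 36 genes, 34 fell and 0 rose, with a median difference of -0.56, against 5.29% of all genes that fell. With an array left out, 29 to 32 of the 36 fell. Averaged over the 36 genes, the log2 level was 9.09 and 9.12 in siD1+3A and 9.80 and 9.79 in siDNMT3A. The members that missed the threshold were ATF4 itself, which read 10.85 and 10.91 against 10.80 and 10.85 (0.06 ± 0.05, adjusted p = 0.522), and FGF21, a secreted metabolic hormone (-0.20 ± 0.09, adjusted p = 0.178).

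Among the signalling members of this list, INHBE, an activin subunit, read 6.49 and 6.56 against 8.28 and 8.20 and fell by 1.72 ± 0.13 on the log2 scale, or 3.29-fold (adjusted p = 1.21e-07). TRIB3, a pseudokinase induced by ATF4, read 6.74 and 6.61 against 7.85 and 8.07 (-1.29 ± 0.12, adjusted p = 1.65e-06). DDIT3, the transcription factor CHOP, read 8.88 and 8.98 against 9.92 and 9.89 (-0.97 ± 0.06, adjusted p = 1.65e-08). Both inhibitors of the growth kinase complex mTORC1 on the list fell: SESN2 read 8.11 and 8.19 against 9.44 and 9.28 (-1.22 ± 0.08), and DDIT4 read 8.06 and 8.14 against 9.31 and 9.31 (-1.21 ± 0.08).

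Enzymes and transporters of amino acid supply fell with them. PCK2, the mitochondrial phosphoenolpyruvate carboxykinase, read 7.18 and 7.21 against 8.53 and 8.54 (-1.34 ± 0.09, adjusted p = 2.05e-08), and ALDH1L2, a mitochondrial folate enzyme, read 7.89 and 7.78 against 9.18 and 9.09 (-1.30 ± 0.07, adjusted p = 2.13e-09). CHAC1, which breaks down glutathione, read 9.67 and 9.76 against 10.85 and 10.80 (-1.11 ± 0.12, adjusted p = 1.69e-05). SLC7A5, a carrier of large neutral amino acids, read 9.17 and 9.29 against 10.34 and 10.28 (-1.08 ± 0.07), and SLC7A11, the cystine carrier, read 11.28 and 11.26 against 12.11 and 12.13 (-0.85 ± 0.05). The falls of ASNS (-0.54 ± 0.07), which makes asparagine, PSAT1 (-0.46 ± 0.05), of serine synthesis, and PHGDH (-0.26 ± 0.05), its first enzyme, were smaller. The pairs of arrays did not overlap in any gene of this paragraph. For PCK2, ALDH1L2, CHAC1 and SLC7A5 this was a condition of being named among the largest falls. How often it held over all genes was not counted.

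The level of the stress list differed between groups of the series in ways that did not follow DNMT1 siRNA alone. Its mean over the 36 genes was 10.13 and 10.14 in siNTC-2 and 8.86 and 8.89 in siNTC-1, both control siRNA groups, and 8.52 and 8.53 in siDNMT1. It was 9.01 and 9.06 in 3A+3L, whose cells received no DNMT1 siRNA, close to the 9.09 and 9.12 of siD1+3A. Over all genes, the differences between siD1+3A and siDNMT3A and those between siNTC-2 and siNTC-1, which share no array, correlated at -0.33 (Pearson) and -0.26 (Spearman, n = 18417 genes, which are not independent replicates). Of the 1771 changed genes, 1301 (73.5%) had the opposite sign between the controls, whether or not they passed the threshold there. The share with the opposite sign over all genes was not counted. By the threshold, 44.7% of all genes differed between the controls. The labels do not say how the control groups differ, and the part of that difference in the falls was not tested.

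**Figure D3:**
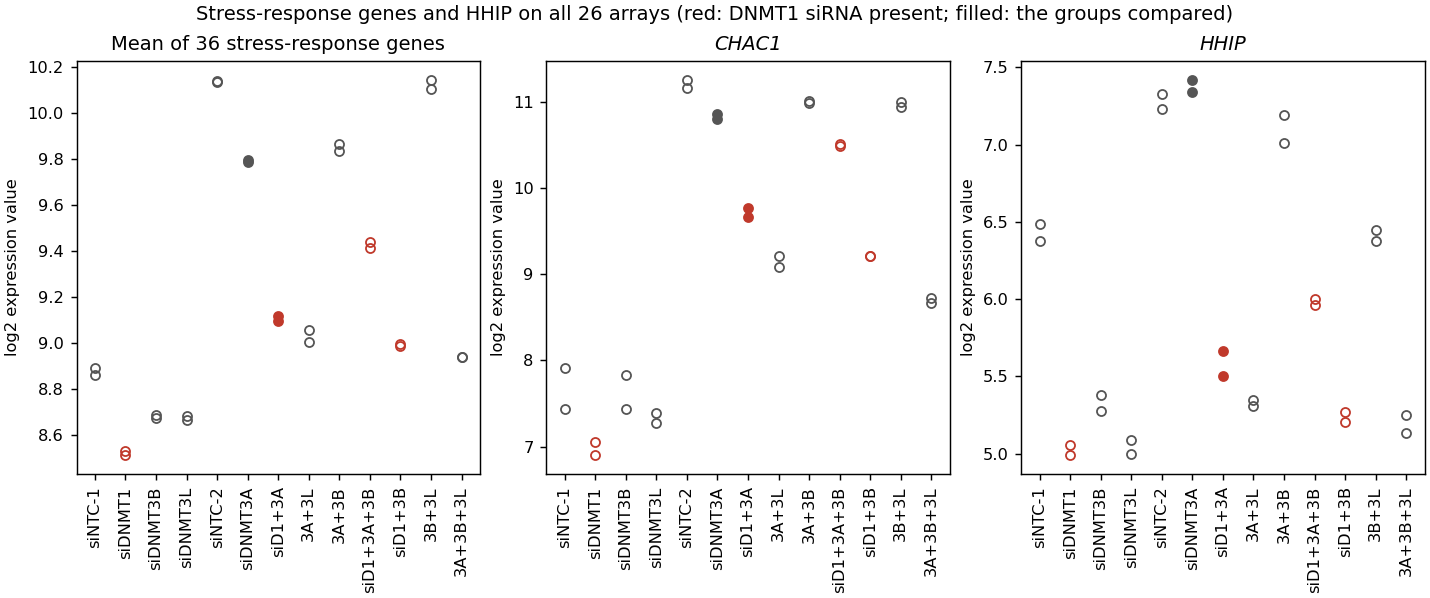
Mean log2 level of the 36 stress-response genes, and log2 levels of CHAC1 and HHIP (vertical axes), on all 26 arrays by siRNA group (horizontal axes), 1 point per array. Red marks DNMT1 siRNA and filled points the groups compared. In each panel siD1+3A lies below siDNMT3A, and 3A+3L, without DNMT1 siRNA, also lies below siDNMT3A (stress-list mean 9.01 and 9.06 against 9.80 and 9.79).

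The largest fall of all was that of HHIP, a membrane protein that binds and holds back Hedgehog ligands. It read 5.51 and 5.66 against 7.34 and 7.42 and fell by 1.80 ± 0.07 on the log2 scale, or 3.47-fold (adjusted p = 7.58e-11). PTCH1, the Hedgehog receptor, also fell, from 10.46 and 10.42 to 10.04 and 10.02 (-0.41 ± 0.06, adjusted p = 0.000323). SFRP2, a secreted Wnt modulator, went the other way, from 11.71 and 11.71 to 12.08 and 12.10 (0.37 ± 0.05, adjusted p = 7.55e-05). Of the 24 developmental signalling regulators 3 rose (12.5%, against 4.32% of all genes) and 4 fell (16.7%, against 5.29%), with a median of -0.12, and 1 to 2 rose and 2 to 3 fell with an array left out. STK32A, a serine/threonine kinase, read 9.53 and 9.49 against 10.62 and 10.54 (-1.07 ± 0.05, adjusted p = 2.46e-10). EOLA1-DT, a divergent non-coding transcript on the X chromosome, fell by 1.11 ± 0.17 (adjusted p = 0.000402), from siDNMT3A arrays that lay apart at 6.12 and 5.45 to 4.59 and 4.77.

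Genes of cholesterol synthesis rose in part, and the glycolysis and hypoxia list was mixed. Of 19 measured genes of cholesterol synthesis, 7 rose (36.8%, against 4.32% of all genes) and 0 fell, with a median of 0.12. INSIG1, which retains the sterol-sensing SREBP system in the endoplasmic reticulum, read 8.66 and 8.69 against 8.07 and 7.94 and rose by 0.67 ± 0.08 (adjusted p = 2.44e-05). MSMO1 (0.44 ± 0.05), HMGCS1 (0.34 ± 0.05) and SQLE (0.33 ± 0.06), enzymes of the pathway, rose with it. In the glycolysis and hypoxia list 5 of 27 rose (18.5%) and 4 fell (14.8%, against 5.29% of all genes), with a median of 0.04. LDHA, lactate dehydrogenase, rose from a mean of 11.99 to 12.48 on both arrays (0.49 ± 0.04, adjusted p = 1.51e-06). TXNIP, the glucose-responsive thioredoxin inhibitor, fell from 11.97 and 11.93 to 11.23 and 11.28 (-0.70 ± 0.07), its relative ARRDC4 fell by 0.81 ± 0.11, and the angiogenic factor VEGFA fell by 0.71 ± 0.08.

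Genes of cell division and growth signalling shifted by small amounts. Of 26 mitosis genes 9 rose (34.6%, against 4.32% of all genes) and 0 fell, and all 26 had a difference above 0 (median 0.13). With only the groups compared in the fit 3 of them rose, while the rises over all genes went from 796 to 223. CCNB1, the mitotic cyclin B1, rose from 10.93 and 10.95 to 11.35 and 11.43 (0.45 ± 0.05, adjusted p = 2.76e-05), and UBE2C, a ubiquitin carrier of mitotic exit, by 0.39 ± 0.06. Of 37 DNA replication genes 5 rose (13.5%) and 2 fell (5.41%, against 5.29% of all genes). With only the groups compared 1 rose and 0 fell. Of 21 ERK feedback and immediate-early genes 8 rose (38.1%) and 1 fell (median 0.10), and 2 to 4 rose with an array left out. EGR1, an immediate-early transcription factor, read 7.38 and 7.48 against 6.78 and 6.76 (0.66 ± 0.08, adjusted p = 5.72e-05). CCND1, cyclin D1, rose from 8.26 and 8.26 to 8.62 and 8.65 (0.38 ± 0.06, adjusted p = 0.00107).

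Markers of pluripotency and of lineages gave a mixed picture. Of 25 pluripotency genes 6 rose (against 4.32% of all genes) and 2 fell (8.0%, against 5.29%), with a median of -0.02, and 3 to 4 rose and 1 fell with an array left out. DPPA3, a maternal factor that protects methylation states in the early embryo, rose from 11.83 and 11.94 to 12.35 and 12.31 (0.45 ± 0.05, adjusted p = 1.23e-05), and the TGF-beta family ligand GDF3 rose by 0.38 ± 0.05. DPPA2, a chromatin factor of pluripotent and germ cells, read 7.31 and 7.08 against 6.65 and 6.28 (0.73 ± 0.16, adjusted p = 0.00686), a call lost without siD1+3A replicate 1 (0.61) or siDNMT3A replicate 2 (0.55). OTX2, a homeobox factor of primed pluripotency and forebrain, fell from a mean of 11.02 to 10.59 and 10.61 (-0.42 ± 0.05, adjusted p = 4.41e-05). Of 13 neural markers 0 rose and 5 fell (38.5%), of 18 trophoblast genes 2 rose and 2 fell (11.1% each), and of 18 mesoderm and endoderm genes 0 passed the threshold. With an array left out 1 to 4 neural markers fell, and 0 to 2 trophoblast genes rose and 1 to 2 fell. SOX21, a neural progenitor factor, fell by 0.35 ± 0.06 (adjusted p = 0.00169).

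Small nucleolar RNAs, which guide the modification of ribosomal RNA, rose in part. Of 115 C/D box genes 22 rose (19.1%, against 4.32% of all genes) and 1 fell (median 0.08), and of 61 H/ACA box genes 17 rose (27.9%) and 2 fell (median 0.12). With an array left out the rises numbered 8 to 19 and 8 to 11. SNORA14B read 7.35 and 7.40 against 6.67 and 6.37 (0.86 ± 0.12, adjusted p = 0.000152), and SNORD14E read 8.12 and 8.05 against 7.43 and 7.15 (0.80 ± 0.13, adjusted p = 0.000736). These RNAs lie in introns of other genes and have near-identical copies, so the host transcript can contribute to the signal. Between the controls, siNTC-2 minus siNTC-1, the log2 difference of SNORD14E was -2.55, opposite in sign to its rise here. Of 59 cytosolic ribosomal protein genes, taken as a list for RNA quality, 2 rose (3.39%) and 0 fell, with a median of 0.02.

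The same addition of DNMT1 siRNA was then examined where DNMT3B siRNA was present as well. The comparison of siD1+3A+3B with 3A+3B shares no array with the first. In it 587 genes changed (3.19%), 187 higher (1.02%) and 400 lower (2.17%), a split that was 366 to 397 after quantile normalization. Without one of its arrays the count was 158 to 250 (158 without siD1+3A+3B replicate 1, 250 without siD1+3A+3B replicate 2, 175 without 3A+3B replicate 1 and 177 without 3A+3B replicate 2). Of the 28 genes that had risen 1.5-fold, 27 had the same sign there and 17 were also called higher (60.7% of the 28, and 9.09% of its 187). Of the 62 that had fallen 1.5-fold, 61 had the same sign and 50 were also called lower (80.6% of the 62, and 12.5% of its 400). Across all genes the differences of the 2 comparisons correlated at 0.52 (Pearson) and 0.43 (Spearman). The share of all genes with the same sign was not counted.

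The sizes of these differences are given as a description, since the 28 and 62 genes had been selected for their size in the first comparison. The rise of MAEL was 0.98 ± 0.11 and that of GTSF1 0.84 ± 0.08, HORMAD1 rose by 0.83 ± 0.16 and ZFP57 by 0.41 ± 0.10 (adjusted p = 0.0364). The fall of HHIP was -1.12 ± 0.07, and 29 of 36 stress genes fell (median -0.43). A test of the difference between both differences called 14 genes (0.076%). H3C11 rose by 1.01 more without DNMT3B siRNA than with it, and INHBE fell by 1.02 more. This count was 0 to 8 when an array was left out, with 0 called by limma without siD1+3A+3B replicate 1 and 1362 genes at an unadjusted p under 0.05. For most genes a difference between these backgrounds was therefore not detectable. DNMT1 itself read 9.19 and 9.28 in siD1+3A+3B against 10.05 and 10.09 in 3A+3B. Its mRNA was at 59.5% of siNTC-2 in siD1+3A+3B and at 55.9% in siD1+3A. The part of the DNMT1 level in the differences between backgrounds was not tested.

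DNMT1 siRNA given alone was compared with siNTC-1, also without a shared array. The labels tie it to neither control, and siNTC-1 was chosen because earlier results of these data placed it nearer to siDNMT1. Here 3653 genes changed (19.8%), 1706 higher (9.26%) and 1947 lower (10.6%), and DNMT1 mRNA was lower by more (-1.42 ± 0.06). Of the 28 genes that rose 1.5-fold on DNMT3A siRNA, 24 had the same sign and 19 were called higher (67.9% of the 28, and 1.11% of the 1706). Of the 62 that fell, 49 had the same sign, 32 were called lower (51.6%, and 1.64% of the 1947) and 3 were called higher. The differences included those of H3C11 (2.67 ± 0.11), MAEL (1.72 ± 0.11), GTSF1 (1.72 ± 0.08), H1-5 (1.71 ± 0.12), HORMAD1 (1.26 ± 0.16) and ZFP57 (1.05 ± 0.10). The stress list gave 27 falls and 1 rise of 36 (median -0.39). VLDLR, a lipoprotein receptor, was higher by 0.25 ± 0.08 there (adjusted p = 0.0306) and lower by 0.82 ± 0.08 on DNMT3A siRNA. TXNIP was likewise 0.58 ± 0.07 higher after DNMT1 siRNA alone. Set against the mean of siNTC-2, without a test, the differences were 1.82 for H3C11, 1.65 for H1-5, 0.76 for MAEL, 1.13 for GTSF1, 0.76 for HORMAD1 and 1.04 for ZFP57. These germ line and histone genes were thus higher in siDNMT1 than the mean of either control, by amounts that depend on the control. They had been named for their large rises on DNMT3A siRNA. Against siNTC-1, 13 of 57 replication-dependent histone genes rose and 8 fell. Of 33 meiosis genes 7 rose and 5 fell, and of 29 piRNA and germ cell genes 9 rose and 0 fell. Against siNTC-2 TXNIP (-3.20) and VLDLR (-1.66) turned negative, all 36 stress genes were below 0 (median -1.40), and 25 of the 28 rises and 58 of the 62 falls had the same sign. Between the controls, siNTC-2 minus siNTC-1, the 62 falls had a median difference of 1.18 and the 28 rises 0.01. The share of all genes with the same sign was not counted against either control. The directions of TXNIP and VLDLR after DNMT1 siRNA alone therefore depend on the control taken. The test of the difference between both differences called 2330 genes (12.7%), 14 of the 36 stress genes among them.

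**Figure D4:**
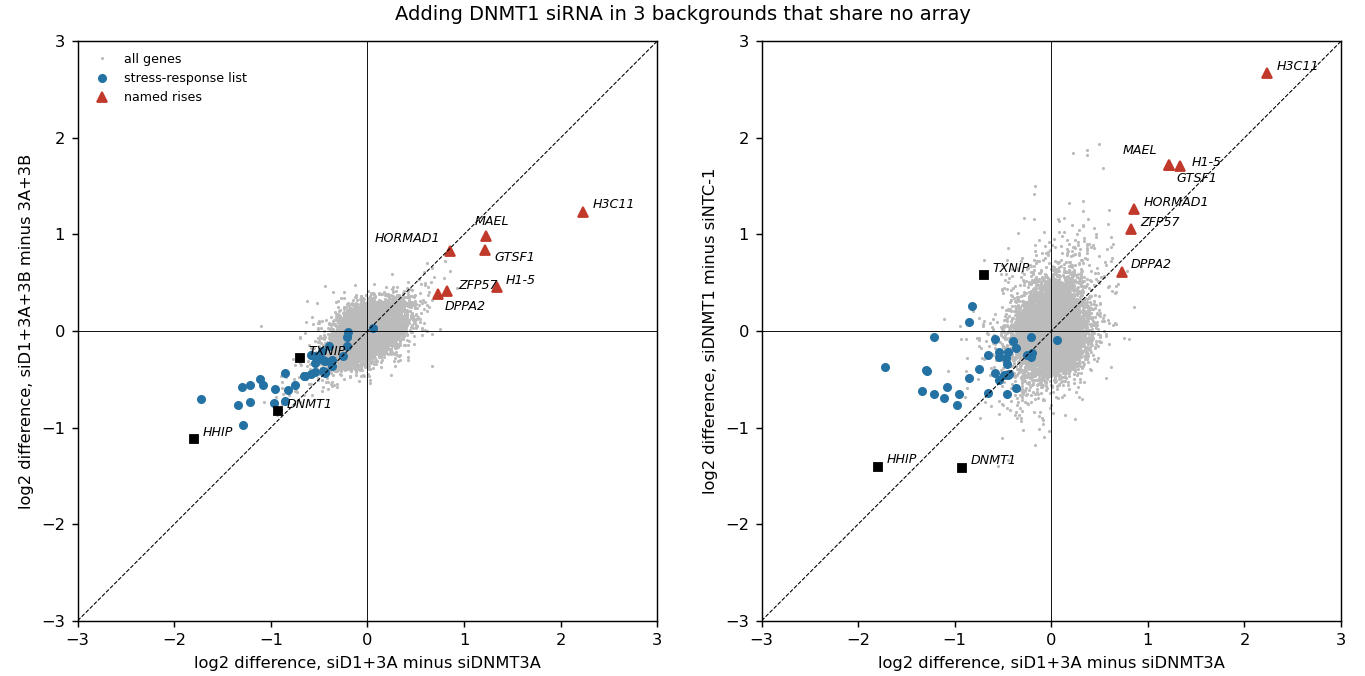
Log2 difference of each gene in siD1+3A minus siDNMT3A (horizontal axes) against siD1+3A+3B minus 3A+3B (left) and siDNMT1 minus siNTC-1 (right), 1 point per gene over 18417 genes, with the stress-response list in blue, named rises in red and the dashed line of equal differences. The named germ line and histone genes lie to the upper right in both panels. TXNIP, at -0.70 on the horizontal axis, lies below 0 on the left (-0.28) and above 0 on the right (0.58). The right panel has siNTC-1 as the control, and with siNTC-2 the value of TXNIP was -3.20.

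The pattern of the rising genes over the whole series was read from the arrays not used in the first comparison. For 29 of all genes (0.157%) the 6 arrays of siDNMT1, siD1+3B and siD1+3A+3B all lay above the 16 arrays of the other groups without DNMT1 siRNA. Of the 28 genes with a 1.5-fold rise, 10 did so, namely CLIC2, GTSF1, H1-1, H1-5, H3C11, MAEL, NRROS, SIAH3, TKTL1 and ZFP57. For 14 genes (0.076%) the 6 arrays all lay below, and of the 62 falls only DNMT1 did so. TKTL1, a transketolase-like gene on the X chromosome, read 5.45 and 5.76 in siD1+3A against 4.94 and 4.90 in siDNMT3A (0.69 ± 0.13, adjusted p = 0.00202). Over the series it lay at 5.35 to 5.80 on the 8 arrays with DNMT1 siRNA and at 4.83 to 5.26 on the other 18. ZFP57 lay at 5.56 to 6.44 and 4.82 to 5.32, and GTSF1 at 7.87 to 8.82 and 6.74 to 7.67. HHIP overlapped, at 4.99 to 6.0 with DNMT1 siRNA and 5.00 to 7.42 without it.

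A direct test of DNMT1 against DNMT3L as the second target, siD1+3A minus 3A+3L, was added after the data were seen. It shares the siD1+3A arrays with the first comparison. In it 137 genes differed (0.744%), 94 higher in siD1+3A (0.51%) and 43 lower (0.233%). Without one of its arrays the count was 23 to 94 (23 without siD1+3A replicate 2, 29 without 3A+3L replicate 1, 36 without siD1+3A replicate 1 and 94 without 3A+3L replicate 2). H3C11 (2.39 ± 0.11), H1-5 (1.49 ± 0.12), MAEL (1.48 ± 0.11), HORMAD1 (1.29 ± 0.16) and GTSF1 (1.09 ± 0.08) were the 5 largest differences. DNMT1 (-0.91 ± 0.06) was the largest of the lower ones, and NEFH, a neurofilament gene, was lower by 0.53 (difference -0.53 ± 0.06, adjusted p = 0.000301). Of the 36 stress genes, CHAC1 (0.57 ± 0.12) and DDIT4 (0.43 ± 0.08) were higher and 0 lower, with a median of 0.04. HHIP read 5.33 on average in 3A+3L, and its difference missed the threshold (0.25 ± 0.07, adjusted p = 0.139).

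The promoters of the changed genes were compared with those of all genes by their letters alone. A promoter entry was found for 14237 genes, and for 19 of the 28 rises and 46 of the 62 falls of at least 1.5-fold. A ratio of observed to expected CpG of at least 0.6, a common mark of CpG-rich promoters, was found in 65.2% of all, in 78.8% of all 613 risers and in 77.7% of all 771 fallers with an entry. Among the 1.5-fold changes it was found in 14 of 19 rises (73.7%) and 35 of 46 falls (76.1%). Expression level was not taken into account in these shares, and its part in them was not tested. The rising germ line genes did not share one type. MAEL holds 51 CpG in its 250 bases (ratio 1.12), ZFP57 12 (0.62) and GTSF1 8 (0.33), and HHIP holds 34 (0.98).

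Short motifs were searched on both strands of the same windows. TGATGCA, part of the composite sites bound by ATF4 with a C/EBP partner, was added after the values were seen. It was found in 1.76% of all promoters and in 4 of 30 of the stress list (13.3%), in AARS1, CHAC1, FGF21 and PHGDH. The capitals in the CHAC1 sequence mark it on the opposite strand. FGF21 is among them although it missed the threshold. CACGTG, the E-box, was found in 7.86% of all promoters and in 4 of 25 of the piRNA and germ cell list, in BRDT, SOHLH1, TDRD1 and TDRD12, which were not among the genes that rose. GCGGGAA, like the sites of E2F factors, was found in 7.78% of all and in 7 of 26 of the meiosis list (26.9%), but not in an entry of the 19 rises. GCATGCG, like NRF1 sites, was found in 4.51% of all and in the promoter of MAEL. GACGTCA, like sites of CREB factors, was found in 4.23% of all, and in HHIP on both strands, where the matches overlap. On the X chromosome lay 4 of the 28 rises (14.3%, against 3.77% of all genes), namely CLIC2, EZHIP, TKTL1 and ZCCHC12.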

How the data were processed

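The 26 arrays were used as deposited, as log2 expression values, 1 per transcript cluster and array. The log base was inferred from the range of 3.04 to 14.87. How background was corrected, probes summarised and arrays normalized is not given in any source used here. Partek is named in the submitters' processing notes without role or version. Per the labels' protocols, cells were transfected by means of PepMute, and Trizol-extracted total RNA was labelled with biotin. Array medians were 6.28 to 6.33. Background signal compresses the differences of dim genes, and an overall shift in RNA would not show.

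Of 33297 rows, 19460 had 1 gene symbol, 1754 several and 12083 none in the platform's annotation. Gene numbers of 19429 rows were found in RefSeq's table for GRCh38.p14, and 0 names changed. Of 769 symbols with several rows the row with the highest mean was kept, which left 18417 genes. Groups came from the sample titles. limma 3.58.1 in R 4.3.3 fitted 1 mean per group to the 26 arrays (lmFit, then eBayes, 13 residual degrees of freedom), and two-sided p-values were adjusted by Benjamini and Hochberg over all genes, with 0.05 as the threshold. The procedure was tested on simulated data. Errors are limma's standard errors. Rose, fell and changed refer to genes past the threshold.

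Genes named are the 15 largest rises and 15 largest falls whose arrays did not overlap between groups, the 4 targets, up to 4 members of a list by smallest adjusted p plus those needed to describe it, and up to 5 per direction for the other comparisons, printed in part. DDX4, DAZL, ASNS, PSAT1, PHGDH, ATF4, FGF21 and VLDLR were named to describe their lists. The comparisons, lists and printed promoters were chosen with earlier results of these data known. Lists are described by counts and medians, without a test. Alternatives were leaving out the 40% of genes with the lowest mean, quantile normalization, a variance prior with trend and robust estimation, weights per array, a block for the replicate number, all rows with 1 symbol, only the groups compared, only the 18 arrays of 9 groups on the side of siNTC-2 in earlier results, and each array left out in turn. The comparison of siD1+3A with 3A+3L, the values of siDNMT1 against siNTC-2 and 1 motif were added after the data were seen.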

Additional observations from a re-analysis of the deposited data

Results flagged for a closer look

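Rows that the gene comparison left out also carried a signal: of 13837 rows without exactly 1 gene symbol, 321 passed the threshold between siD1+3A and siDNMT3A (2.32%), 152 higher and 169 lower. They were tested with limma in the same way, and of the 18417 genes of the gene comparison 9.62% passed.

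A difference between backgrounds was called when the difference of both differences passed limma's threshold. Between siD1+3A minus siDNMT3A and siD1+3A+3B minus 3A+3B it was called for 14 genes. It was -1.02 for INHBE, -0.80 for TMEM101, -0.72 for ALDH1L2, -0.68 for HHIP and -0.65 for DDIT4. It was 0.35 for STMN2, 0.47 for UTP14A, 0.56 for CKS2, 0.71 for SNX8 and 1.01 for H3C11. TMEM101 fell by 0.52 without DNMT3B siRNA and had a difference of 0.29 with it. CKS2, a CDK-binding protein of cell division, rose by 0.57 without DNMT3B siRNA and had a difference of 0.01 with it. STMN2, a neuronal tubulin-binding protein, fell with it (-0.41) and had a difference of -0.06 without it.

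Between siD1+3A minus siDNMT3A and siDNMT1 minus siNTC-1 the difference was called for 2330 genes. The largest were -1.67 for SUCLG2, -1.61 for IGFBP7, -1.59 for NFE2L3, -1.51 for SLC38A1 and -1.45 for PLAAT3 on the side where DNMT1 siRNA alone gave the higher value. On the other side they were 1.15 for MYCNOS, 1.06 for TEX52, 1.02 for RAB25, 1.01 for GLRA2 and 1.01 for TENM2. IGFBP7, a secreted growth factor binding protein, rose by 1.84 after DNMT1 siRNA alone and by 0.23 on DNMT3A siRNA. SUCLG2, a subunit of the mitochondrial succinyl-CoA synthetase, had differences of 1.51 and -0.16, and its arrays were scattered (7.35 and 7.76 in siD1+3A, 7.84 and 7.59 in siDNMT3A).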

How the results depend on the processing

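The count of genes changed between siD1+3A and siDNMT3A was 609 with only the groups compared and 642 to 954 with an array left out, and that of 1.5-fold changes 85 to 115. For siD1+3A+3B minus 3A+3B the count of 587 became 1019 without the dimmest genes, 978 with the trended prior, 1391 with array weights, 30 with only the groups compared and 158 to 250 with an array left out. For siDNMT1 minus siNTC-1 it was 1899 with array weights, 671 with only the groups compared and 2509 to 3046 with an array left out. For siD1+3A minus 3A+3L it was 273 with the trended prior, 14 with only the groups compared and 23 to 94 with an array left out. The 14 genes that differed between backgrounds became 28 without the dimmest genes, 29 after quantile normalization, 66 with the trended prior, 78 with array weights, 0 with only the groups compared (limma, 2062 at an unadjusted p under 0.05) and 0 to 8 with an array left out. Against siDNMT1 minus siNTC-1 the 2330 became 767 with only the groups compared and 1476 to 2220 with an array left out. Where only the compared groups or fewer arrays entered, fewer residual degrees of freedom remained. The cause of the other shifts was not tested. A lone array was assumed to vary like the other groups.

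The log2 difference of DNMT3A, which had not passed, was -0.116 to 0.026 with an array left out, the positive value without siD1+3A replicate 2. Of 151 named differences under the alternatives, 1598 values kept direction and side of the threshold, 261 lost the call, 1 gained it and 1 changed sign. Deviations of equally numbered replicates of siD1+3A and siDNMT3A correlated at -0.09 (range -0.26 to 0.19 over 78 pairs of groups), so the numbers were not taken as pairs. With the replicate block 1718 genes changed in the first comparison, and the 14 became 9. With 2 arrays per group, small differences are detected only in part.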

Other observations

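For 172 genes both siD1+3A arrays lay above all other 24 arrays (0.934%) and for 79 below (0.429%). The same counts ranged from 30 to 833 above and 67 to 860 below over the other 12 groups, so siD1+3A lay within their range. The widest gap above was that of CKS2, at 12.09 and 12.02 against 11.72 on the nearest other array. H2AC14 (7.85 and 7.71 against 7.45), DUSP5 (7.32 and 7.28 against 7.14), BTN3A3 and RASD1 followed. The widest gap below was that of SLC35A5, a nucleotide sugar transporter family member, at 9.16 and 9.16 against 9.32, followed by ZNF322, LINC02249, TAS2R45 and EOLA1-DT.

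Of 233 zinc finger genes on chromosome 19, a family that includes many repressors of transposons, 5 rose (2.15%, against 4.32% of all genes) and 4 fell (1.72%, against 5.29%) between siDNMT3A and siD1+3A, and the median was 0.00. With an array left out 1 to 3 rose and 1 fell. Of 32 adhesion and extracellular matrix genes 5 rose (15.6%) and 6 fell (18.8%). With only the groups compared 1 rose and 2 fell. TNC, tenascin C, rose from 8.07 and 7.99 to 8.42 and 8.39 (0.37 ± 0.06), and COL4A2, a basement membrane collagen, fell from 7.47 and 7.49 to 7.06 and 7.08 (-0.41 ± 0.05). Of 16 endoplasmic reticulum chaperones 2 rose (12.5%) and 1 fell (6.25%), MANF rising by 0.40 ± 0.07. Of 10 metallothioneins 1 rose (10.0%), of 18 G1 cyclins and CDK inhibitors 1 rose (5.56%) and 3 fell (16.7%), of 24 p53 target genes 2 fell (8.33%), and of 9 genes of active demethylation 1 fell (11.1%). With an array left out, 0 to 1 of the metallothioneins rose and 0 to 1 of each of the other 3 lists fell. The median differences of these last lists were 0.10, 0.06, -0.01 and 0.05.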
